A study of Mus musculus with 23 samples.

Results

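Retinal organoids given the omega-3 fatty acid docosahexaenoic acid (DHA) were compared with organoids given its carrier alone, bovine serum albumin (BSA), at day 32 of differentiation and in the presence of fibroblast growth factor 1 (FGF1). The comparison took every library labelled as DHA with FGF1 (replicates 1 and 2) and every library labelled as BSA with FGF1 (replicates 1, 2 and 3), which is 5 of the 23 libraries of the study. The libraries of both groups were taken by their labels.

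Both groups came from the same wild-type induced pluripotent stem cell line of the mouse, a single clone made with inducible reprogramming vectors from embryonic fibroblasts that carry an Nrl-GFP reporter, which marks rods. The full study of 9 groups also holds linoleic acid (LA) in place of DHA, a day 26 collection, and a day 32 collection without FGF1. DHA was bound to BSA and supplied at 26 µM from day 10 onward, and the control organoids received BSA with no fatty acid. FGF1 was supplied to both groups at 200 ng/ml from day 26. The base medium, shared by both groups, held taurine, 9-cis retinal and insulin-like growth factor 1, and from day 26 also B27 without vitamin A, non-essential amino acids and 2% fetal bovine serum. Each library was made from poly(A) RNA of neural retina cut out of 12 pooled organoids, per the labels, which call the libraries biological replicates. All p-values measure the spread between such pools of a single clone.

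DHA is the main polyunsaturated fatty acid of photoreceptor outer segments, where it is held in phospholipids of the disc membranes. It reaches the retina as free fatty acid or lysophospholipid, is activated by acyl-CoA synthetases and esterified by acyltransferases, and free fatty acids can also bind PPAR nuclear receptors and lower SREBP processing. FGF1 signals through FGF receptors and the ERK kinases, which switch on feedback genes of the Sprouty, Dusp and Etv families.

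The 3 BSA libraries held 16540270, 20510550 and 11699980 counts and the 2 DHA libraries held 18756175 and 16029580. The third BSA library belonged to a set of 11 shallower libraries of the study, and the other 4 to a set of 12 deeper ones. It stood apart in other ways as well: mitochondrial transcripts made up 11.9% of its counts against 3.03% to 3.35% in the other 4, and it is 1 of the 5 libraries with no column in the normalized table deposited by the authors. For this reason the library set was a term of the model, and the overall counts and several list medians are also given from a fit of the 12 deeper libraries, in which 2 BSA and 2 DHA libraries are compared. That term is estimated from BSA with FGF1 and LA with FGF1, the groups that hold libraries of both sets. The log2 differences below are corrected for the set, whereas the CPM of single libraries (counts scaled to a common library size) are not. None of the 6 rod markers, the 4 general photoreceptor markers or the markers of the other retinal classes was at 0 in all 5 libraries. The same held for the lens, microglial and pluripotency markers, so this does not tell present cell types from absent ones. The ganglion cell marker Pou4f2 reached at most 1.0 CPM. Summed levels of lens markers (at most 0.308 CPM), microglial markers (at most 0.472 CPM) and pluripotency markers (at most 1.2 CPM) were near 0.

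No gene passed an adjusted p of 0.05 in the comparison of DHA with BSA. Of 21124 genes tested with the edgeR quasi-likelihood test, 0 were called (0.00%), and the adjusted p of every gene was 1. At an unadjusted p under 0.05 there were 246 genes (1.16%), of which 94 were higher with DHA (0.445%) and 152 lower (0.720%). DESeq2 and limma voom also called 0, with 304 and 970 genes at an unadjusted p under 0.05. The split by direction moved with the setting: it was 49 higher and 326 lower without the set term, 517 and 453 with limma voom, and 140 and 112 without DHA replicate 2. The median 95% interval reached 0.92 log2 units to either side, so that a difference of that size or smaller lay within the error of a typical gene. In the fit of the 12 deeper libraries, 0 of 20111 genes were called (0.00%), 546 had an unadjusted p under 0.05 (2.71%), and the median half-width was 0.60. The values of gene groups below are therefore descriptions, and no gene named in them passed the adjusted test.

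Of the alternatives run for this comparison, only leaving out the filter on low counts gave any call. With no filter, 38 of 36909 genes passed (0.103%), 15 higher and 23 lower, and in the deeper libraries 99 of 35601 passed (0.278%), 41 higher and 58 lower. All 38 also lie in the filtered table, where none passed, and 34 were called in both unfiltered fits, with the same sign. The filter changed the estimate of gene-to-gene spread: the median prior degrees of freedom were 4.84 with the filter and infinite without it, so that without it each gene's dispersion was taken from the trend and its own spread was given no weight. Of the 38, 18 bear the names of predicted genes or pseudogenes. The named ones include Tyr, Tyrp1, Pmel, Ttr, Aqp1 and Gpnmb, lower with DHA, and Fn1, Igf2, Acan, Afap1l2 and Olfr1178, higher with DHA.

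**Figure D1:**
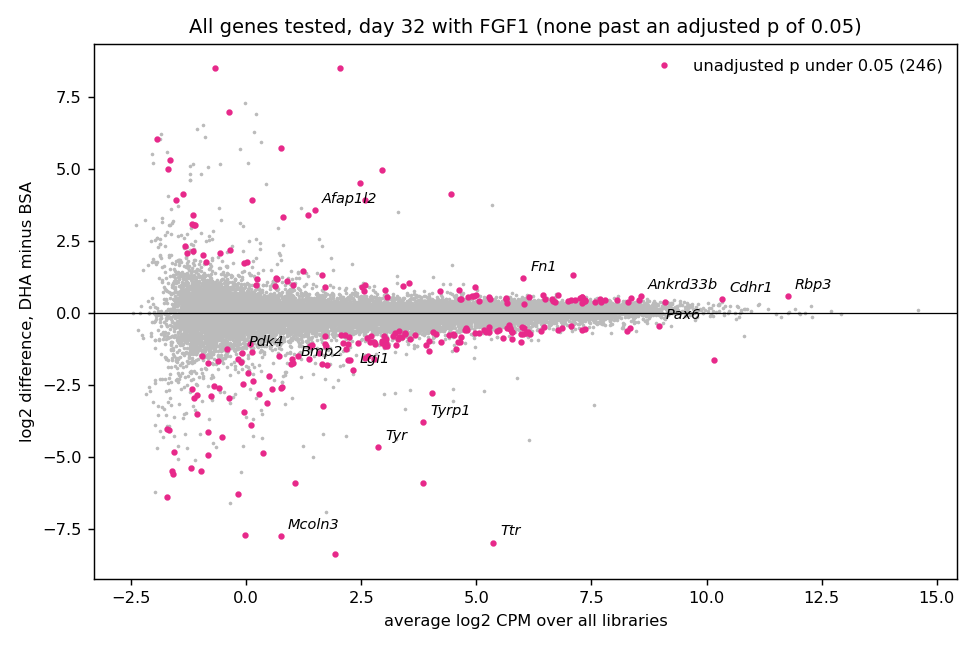
Log2 difference, DHA minus BSA at day 32 with FGF1 (vertical axis), against the average log2 CPM over all libraries (horizontal axis) for the 21124 genes tested. The 246 coloured points have an unadjusted p under 0.05 and none passed after adjustment; the cloud narrows as abundance rises, and Ttr, Tyr and Tyrp1 lie below it.

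Photoreceptor genes lay on the positive side of the comparison as a group. Of 19 rod genes tested, 18 had a positive log2 difference, where 53.7% of all genes did, and the median was 0.26 against 0.02 over all genes. Among 39 genes used by both rods and cones, 37 were positive, with a median of 0.30, and 9 of them were higher in both DHA libraries than in all 3 BSA libraries (7.08% of all genes). None was called, and 3 had an unadjusted p under 0.05. With the deeper libraries only, the medians were 0.26 and 0.24. As single libraries were left out in turn, the rod median ran from 0.08 (without BSA replicate 1) to 0.58 (without BSA replicate 2), and the shared one from 0.08 (without DHA replicate 2) to 0.45. In RNA of whole tissue pieces, more cells of a type and more RNA per cell cannot be told apart.

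Nrl (chr14:55518978-55524981, minus strand), the transcription factor that sets rod fate and drives the reporter of this line, measured 598, 801 and 660.0 CPM in the 3 BSA libraries and 828 and 956 CPM in the 2 DHA libraries. Both DHA values were above all BSA values, and the log2 difference was 0.39 (95% interval −0.08 to 0.86, unadjusted p = 0.0974). Its target Nr2e3, a nuclear receptor that represses cone genes in rods, gave 752, 724 and 397 CPM with BSA and 794 and 755 CPM with DHA. These did not overlap either, and the log2 difference was 0.11 (95% interval −0.38 to 0.60, unadjusted p = 0.64). Gnat1, the rod transducin, was at 48.9, 152 and 14.7 CPM with BSA and 88.0 and 227 CPM with DHA, a log2 difference of 0.71 (95% interval −0.99 to 2.4, unadjusted p = 0.391). The groups overlapped, with replicate 2 high in both, and the sign of Gnat1 rests on DHA replicate 2, since without that library the difference was −0.13. Pde6b, a subunit of the rod phosphodiesterase, was at 694, 920.2 and 745 CPM with BSA and 863 and 1091 CPM with DHA.

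The smallest p-values among photoreceptor genes belonged to genes of the outer segment and of the space around it. Cdhr1 (chr14:37077857-37098347, minus strand), a cadherin at the base of the outer segment, measured 1067, 1349.8 and 1365 CPM with BSA and 1588 and 1749 CPM with DHA, a log2 difference of 0.50 (95% interval 0.14 to 0.86, unadjusted p = 0.00967). Rbp3 (chr14:33954003-33964216, plus strand) encodes the interphotoreceptor retinoid-binding protein, which carries retinoids and also fatty acids between photoreceptors and pigment epithelium. It measured 3784, 5234 and 2332 CPM with BSA and 6921 and 6659.8 CPM with DHA, and the log2 difference was 0.58 (95% interval 0.10 to 1.06, unadjusted p = 0.0204). Gucy2e (chr11:69218117-69237036, minus strand), a guanylate cyclase that restores cyclic GMP after light, measured 227, 297 and 162 CPM with BSA and 359.9 and 350.1 CPM with DHA, a log2 difference of 0.45 (95% interval 0.00 to 0.89, unadjusted p = 0.0479). In all 3 genes both DHA libraries lay above every BSA library, and the difference in the deeper libraries alone was 0.45, 0.57 and 0.42. In LA with FGF1, the other fatty acid group, Rbp3 was at 4010.2, 3618 and 1902 CPM and Cdhr1 at 1055, 931 and 1275 CPM, below both DHA libraries in each case, a difference that was not tested. Otx2, the homeobox factor upstream of photoreceptor fate, was at 451, 404 and 481 CPM with BSA and 537 and 536 CPM with DHA, with a log2 difference of 0.34 (95% interval −0.02 to 0.69, unadjusted p = 0.0622). Its relative Crx, which activates most photoreceptor genes, was at 1097, 1125 and 1304 CPM with BSA and 1361 and 1295 CPM with DHA. One BSA library, replicate 3, overlapped the DHA values of Crx, and the log2 difference was 0.27 (95% interval −0.03 to 0.57, unadjusted p = 0.0771). Rcvrn, the calcium sensor recoverin, overlapped between groups, with a log2 difference of 0.49 (95% interval −0.27 to 1.25, unadjusted p = 0.193).

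The windows upstream of Rbp3 and Gucy2e are shown because these are the photoreceptor genes with an unadjusted p under 0.05 whose 250 bases before the RefSeq start (build GRCm38.p6) hold the letters TAATCC, the core bound by CRX and OTX2. Each holds it once, on the other strand, so that the capitals below read GGATTA. In Rbp3 (chr14:33953753-33954002, plus strand) the match begins 69 bases before the start, and in Gucy2e (chr11:69237023-69237272, minus strand) 42 bases before it, both sequences being written 5′ to 3′ on the strand of the gene. The deposited interval of Gucy2e, given earlier, reaches into the end of its window but not to the match.
Rbp3: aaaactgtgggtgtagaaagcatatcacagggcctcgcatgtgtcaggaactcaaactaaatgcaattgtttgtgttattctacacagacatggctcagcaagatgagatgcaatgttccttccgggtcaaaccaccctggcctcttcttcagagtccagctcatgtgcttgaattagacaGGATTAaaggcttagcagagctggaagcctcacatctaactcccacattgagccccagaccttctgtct
Gucy2e: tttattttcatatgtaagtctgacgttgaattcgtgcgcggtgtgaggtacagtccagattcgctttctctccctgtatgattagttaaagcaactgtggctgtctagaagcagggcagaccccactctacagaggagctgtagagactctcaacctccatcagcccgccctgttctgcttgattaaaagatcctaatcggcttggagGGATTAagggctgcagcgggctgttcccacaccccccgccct
On either strand TAATCC stands in 6.25% of all 32851 windows and, counted by gene, in 7.21% of 27025 genes and in 9 of the 31 shared photoreceptor genes with a window. It also stands in 6 of the 13 genes with a window of the pigment list described below, which lay on the negative side. The letters are thus not particular to the photoreceptor genes. A match of letters is a description and does not show that a factor binds there.

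Cone genes lay on the negative side of the comparison. Of 14 tested, 11 had a negative log2 difference (46.3% of all genes did), the median was −0.36 and 4 were lower in both DHA libraries than in every BSA library (6.48% of all genes). None was called or had an unadjusted p under 0.05. Arr3 (chrX:100605497-100618493, plus strand), cone arrestin, was at 11.7, 7.08 and 6.93 CPM with BSA and 6.15 and 3.08 CPM with DHA, a log2 difference of −0.95 (95% interval −2.03 to 0.14, unadjusted p = 0.0837). Opn1sw, the short-wavelength cone opsin, was at 27.9, 16.1 and 7.53 CPM with BSA and 14.3 and 4.36 CPM with DHA, and the groups overlapped. The cone channel subunit Cngb3, the cone phosphodiesterase Pde6c and the cone transducin Gnat2 each had both DHA libraries below all BSA libraries, with log2 differences of −0.57, −0.77 and −0.50. Thrb, the thyroid hormone receptor needed for long-wavelength cone fate, had the opposite sign, 0.20 (95% interval −0.20 to 0.61, unadjusted p = 0.307). In the deeper libraries alone the cone median was −0.43, and leaving out single libraries gave medians from −0.77 (without DHA replicate 1) to −0.12 (without BSA replicate 1). Summed levels overlapped between the groups. The cone markers summed to 84.5 to 168 CPM with BSA and to 95.1 and 98.4 CPM with DHA. The 14 cone genes tested summed to 1160, 1108 and 630 CPM with BSA and to 1136 and 1175 CPM with DHA.

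**Figure D2:**
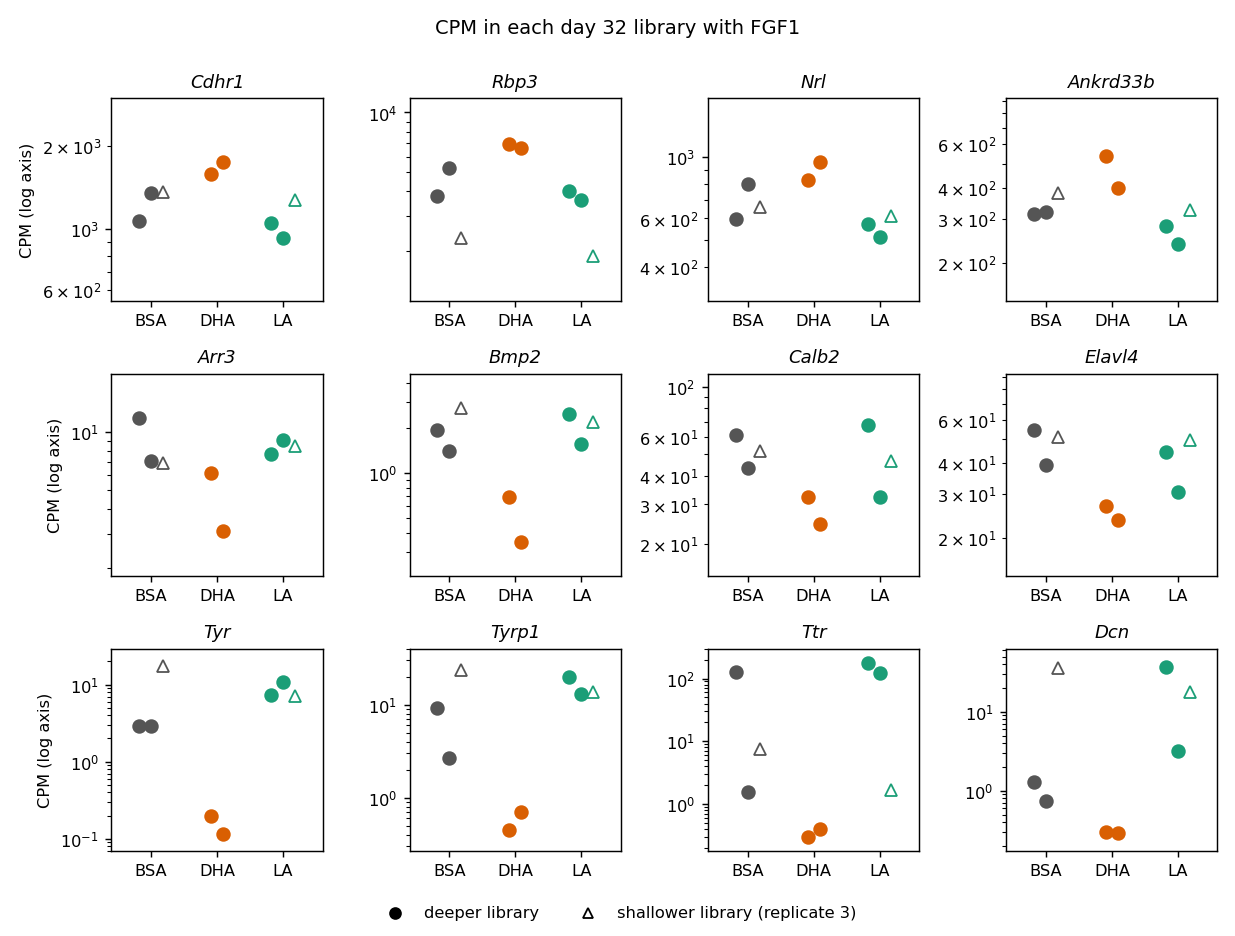
CPM of 12 genes on log axes in each day 32 library with FGF1, grouped by BSA (3 libraries), DHA (2) and LA (3). Filled circles are deeper libraries and open triangles the shallower replicate 3; DHA points lie above the BSA points for Cdhr1, Rbp3, Nrl and Ankrd33b and below them for the other 8 genes.

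Ribbon synapse genes, which serve transmitter release from photoreceptors and bipolar cells, were positive in 19 of 24, with a median of 0.18 that ran from 0.04 (without DHA replicate 2) to 0.41 (without BSA replicate 2). The vesicular glutamate transporter Slc17a7 was at 299, 415 and 87.5 CPM with BSA and 431 and 474 CPM with DHA, without overlap. Bipolar genes were positive in 17 of 25, with a median of 0.13 that ran from 0.03 (without DHA replicate 2) to 0.20. A single bipolar gene had an unadjusted p under 0.05, Nyx, whose product organises the glutamate receptor complex of bipolar dendrites, at 8.07, 7.74 and 11.6 CPM with BSA and 11.8 and 12.3 CPM with DHA, a log2 difference of 0.56 (95% interval 0.03 to 1.1, unadjusted p = 0.0405). Lhx4, a homeobox factor of bipolar cells, had a log2 difference of 0.56 and did not overlap between groups.

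Amacrine and ganglion cell genes lay on the negative side. Amacrine genes were negative in 16 of 20 (46.3% of all genes were), with a median of −0.50 (−0.46 in the deeper libraries), and 7 were lower in both DHA libraries than in every BSA library, as 6.48% of all genes were. Ganglion cell genes were negative in 18 of 21, with a median of −0.32, 4 of them without overlap. Each list had 2 genes with an unadjusted p under 0.05, all lower with DHA (0.720% of all genes), and 0 called. Leaving out single libraries gave medians from −0.67 to −0.33 for amacrine and from −0.63 to −0.25 for ganglion cell genes, the lower bounds being those without DHA replicate 1.

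Calb2 (chr8:110137502-110168210, minus strand), the calcium buffer calretinin of amacrine and ganglion cells, was at 60.9, 43.6 and 51.8 CPM with BSA and 32.4 and 24.5 CPM with DHA. The log2 difference was −0.89 (95% interval −1.68 to −0.10, unadjusted p = 0.0291). Pax6 (chr2:105668900-105697364, plus strand), a homeobox gene kept on in amacrine, ganglion and progenitor cells, was at 550.4, 484 and 402 CPM with BSA and 391 and 391 CPM with DHA, a log2 difference of −0.45 (95% interval −0.87 to −0.02, unadjusted p = 0.0402), and BSA replicate 3 was only just above the DHA values. Elavl4 (chr4:110203722-110351909, minus strand), a neuronal RNA-binding protein, was at 54.5, 39.5 and 51.2 CPM with BSA and 26.7 and 23.6 CPM with DHA. Its log2 difference was −0.85 (95% interval −1.53 to −0.18, unadjusted p = 0.0164), and both groups stood clear of each other. Among the others, the amacrine factor Tfap2b, the GABA-synthesising enzyme Gad1, the growth cone protein Gap43 and the neurofilament subunit Nefm had log2 differences of −0.62, −0.49, −0.48 and −0.54, all without overlap. The amacrine marker Slc6a9 went the other way. It was at 86.4, 88.6 and 14.5 CPM with BSA and 105 and 103 CPM with DHA, also without overlap. Of the 20 amacrine genes, 4 were positive, and 1 was higher in both DHA libraries than in every BSA library. In LA with FGF1, Calb2 was at 67.3, 32.4 and 46.5 CPM and Elavl4 at 44.3, 30.6 and 49.7 CPM, given side by side and not tested. Amacrine markers summed to 579 to 658 CPM in the BSA libraries and to 386 and 535 CPM in the DHA libraries, while rod markers summed to 2968 to 6596 CPM and to 5527 and 8143 CPM. Ganglion cell markers summed to 118 to 193 CPM with BSA and to 117 and 123 CPM with DHA, so that their sums overlapped, as those of the rod markers did.

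Müller glia, progenitor and cell cycle lists centred near 0, with medians of −0.04, 0.07 and −0.01, and the Müller list was negative in 16 of 22. All 3 medians took both signs as single libraries were left out, from −0.20 (without BSA replicate 1) to 0.07 for Müller glia, from −0.21 (without DHA replicate 1) to 0.22 for progenitors and from −0.25 (without BSA replicate 1) to 0.17 for the cell cycle. Nfia, a factor of late progenitors and glia, was at 31.8, 26.2 and 28.8 CPM with BSA and 56.9 and 35.3 CPM with DHA, a log2 difference of 0.60 (95% interval 0.08 to 1.12, unadjusted p = 0.0261), and DHA replicate 1 was well above replicate 2. Horizontal cell genes had a median of −0.01.

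Pigment epithelium and melanin genes lay on the negative side. Of 17 tested, 15 were negative, the median was −0.62 (−0.40 in the deeper libraries, where the mesenchyme, amacrine and cone medians were lower), and 7 were lower in both DHA libraries than in every BSA library (6.48% of all genes). Without DHA replicate 1 the median was −1.11, the lowest as single libraries were left out, and the highest was −0.38. Tyr (chr7:87424771-87493512, minus strand), the rate-limiting enzyme of melanin synthesis, was at 2.88, 2.90 and 17.3 CPM with BSA and 0.198 and 0.116 CPM with DHA, a log2 difference of −4.65 (95% interval −7.61 to −1.70, unadjusted p = 0.00393). BSA replicate 3 was several times the other BSA libraries, yet the 2 deeper BSA libraries were also above both DHA libraries, and leaving out any library gave log2 differences from −5.13 to −4.11. Tyrp1 (chr4:80834123-80851719, plus strand), which acts after Tyr in the same pathway, was at 9.33, 2.64 and 23.7 CPM with BSA and 0.447 and 0.697 CPM with DHA, a log2 difference of −3.78 (95% interval −6.59 to −0.98, unadjusted p = 0.011). Pmel, the melanosome fibril protein, was at 3.77, 1.58 and 5.32 CPM with BSA and 0.645 and 0.697 CPM with DHA, and its log2 difference was −2.77 (95% interval −5.59 to 0.05, unadjusted p = 0.0535). Ttr, the thyroid hormone and retinol carrier transthyretin, was at 127, 1.54 and 7.63 CPM with BSA and 0.298 and 0.407 CPM with DHA. The BSA libraries differed among themselves by far more than a typical gene, and the log2 difference was −7.96 (95% interval −14.13 to −1.79, unadjusted p = 0.0143), between −9.11 and −5.48 as single libraries were left out. Otx1 was at 1.52, 0.836 and 1.61 CPM with BSA and 0.0496 and 0.523 CPM with DHA, a log2 difference of −2.56 (95% interval −4.41 to −0.70, unadjusted p = 0.00963). Mitf, the master regulator of pigment cells, was nearer, at 7.91, 10.4 and 10.4 CPM with BSA and 7.09 and 6.45 CPM with DHA. Tyr, Tyrp1, Pmel and Ttr are 4 of the 38 genes that pass when no filter is used, and the pigment list was one of those chosen with results of these data known.

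Pigment cell markers summed to between 7.26 and 46.7 CPM in the BSA libraries, with replicate 3 highest, and to 1.54 and 1.68 CPM in the DHA libraries. Of these markers, Rpe65 was at most 0.052 CPM, and Best1 was at most 0.20 CPM and higher in both DHA libraries. Summed over the 17 pigment genes tested, the groups overlapped, at 397, 276 and 229 CPM with BSA and 271 and 259 CPM with DHA. In LA with FGF1, Tyr was at 7.38, 10.9 and 7.04 CPM and Tyrp1 at 20.0, 13.1 and 13.8 CPM. All lay within the range of the BSA libraries, but the top of that range was the shallower replicate 3. LA replicates 1 and 2, which are deeper, were above both deeper BSA libraries, at 2.88 and 2.90 CPM for Tyr and 9.33 and 2.64 CPM for Tyrp1. The difference between LA and BSA was not tested. The labels say that neural retina was cut out of the organoids, and the part of tissue from outside the neural retina in the values of other genes was not tested.

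The upstream windows of Tyr and Tyrp1 are shown because both genes had an unadjusted p under 0.05 and both windows hold TCATGTG, the core of the M-box bound by MITF, marked in capitals. It begins 22 bases before the RefSeq start of Tyr (chr7:87493513-87493762, minus strand) and 47 bases before that of Tyrp1 (chr4:80833963-80834212, plus strand), in GRCm38.p6 and written as above. The deposited interval of Tyrp1, given earlier, starts inside this window and takes in the match, because the deposited and RefSeq starts differ.
Tyr: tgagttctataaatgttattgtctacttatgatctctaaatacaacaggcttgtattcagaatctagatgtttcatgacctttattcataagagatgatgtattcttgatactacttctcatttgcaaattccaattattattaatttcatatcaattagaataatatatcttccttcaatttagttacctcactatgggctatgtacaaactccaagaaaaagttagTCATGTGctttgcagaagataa
Tyrp1: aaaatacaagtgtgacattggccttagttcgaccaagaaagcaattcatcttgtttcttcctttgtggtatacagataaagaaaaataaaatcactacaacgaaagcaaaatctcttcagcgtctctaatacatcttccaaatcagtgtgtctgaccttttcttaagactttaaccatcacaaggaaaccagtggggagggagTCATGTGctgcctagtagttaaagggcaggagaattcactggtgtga
Both strands counted, TCATGTG stands in 3.25% of all 32851 windows, in 3.72% of genes and in 4 of the 13 genes of the pigment list with a window. The Rbp3 window printed earlier also holds it once, while the windows of Tyr and Tyrp1 hold no TAATCC.

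Ciliary margin genes were negative in 13 of 17, with a median of −0.43, and mesenchyme and fibroblast genes in 15 of 20, with a median of −0.56. Msx1, a homeobox gene of the ciliary margin, was at 2.25, 0.176 and 1.0 CPM with BSA and 0.149 and 0.116 CPM with DHA. Its 2 DHA values were below every BSA value, but BSA replicate 2 was close to them, and the log2 difference was −3.11 (95% interval −6.08 to −0.14, unadjusted p = 0.0411). Cdo1, which degrades cysteine, was at 7.86, 9.55 and 19.5 CPM with BSA and 3.67 and 6.62 CPM with DHA, a log2 difference of −0.90 (95% interval −1.74 to −0.06, unadjusted p = 0.0373). Gja1, a connexin of gap junctions, was at 16.7, 6.95 and 60.0 CPM with BSA and 6.55 and 4.01 CPM with DHA. Dcn, the matrix proteoglycan decorin, was at 1.31, 0.748 and 36.2 CPM with BSA and 0.298 and 0.290 CPM with DHA, far higher in BSA replicate 3, and its log2 difference was −2.79 with all libraries and −1.79 in the deeper ones. The sums of 5 fibroblast markers overlapped, running from 20.2 to 225 CPM with BSA, where replicate 3 was highest, and from 11.0 to 22.3 CPM with DHA. Fn1, fibronectin, had the opposite sign with a log2 difference of 1.22 (95% interval 0.10 to 2.34, unadjusted p = 0.034), but at 52.2, 47.0 and 65.5 CPM with BSA and 193 and 43.3 CPM with DHA it rested on DHA replicate 1. Without that library it was −0.23. Summed over the 20 mesenchyme and fibroblast genes, the groups overlapped, at 611, 618 and 925 CPM with BSA and 781 and 581 CPM with DHA.

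Genes for the uptake of DHA and its placement into phospholipids were positive in 25 of 38, with a median of 0.14 (0.07 in the deeper libraries and 0.04 without DHA replicate 2), and 2 had an unadjusted p under 0.05, Rbp3 and Acsl1. Acsl1 (chr8:46471037-46536051, plus strand), an acyl-CoA synthetase for long-chain fatty acids, was at 139.6, 166 and 149 CPM with BSA and 178 and 224 CPM with DHA, without overlap, and its log2 difference was 0.42 (95% interval 0.02 to 0.82, unadjusted p = 0.0412). Adipor1, a receptor needed for the retina to keep DHA, was at 119, 134 and 107 CPM with BSA and 160.3 and 153 CPM with DHA, also without overlap, with a log2 difference of 0.29 (95% interval −0.06 to 0.64, unadjusted p = 0.0973). The acyltransferase Lpcat2 gave 0.33, again without overlap. The genes most closely tied to DHA in this list had smaller values. Agpat3, the acyltransferase that places DHA into phospholipid, had a log2 difference of 0.17 (95% interval −0.55 to 0.89, unadjusted p = 0.624). Acsl6, the synthetase that prefers DHA, had 0.13 (95% interval −0.40 to 0.66, unadjusted p = 0.616), and Mfsd2a, which carries DHA as lysophosphatidylcholine into cells, had −0.30 (95% interval −1.73 to 1.13, unadjusted p = 0.665).

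Desaturases and elongases, which make long polyunsaturated fatty acids from shorter ones, were positive in 17 of 24, with a median of 0.13 (−0.03 without BSA replicate 1). Fads1, a desaturase of polyunsaturated fatty acids, was at 207, 210.1 and 194 CPM with BSA and 267 and 234 CPM with DHA, where both DHA libraries were above every BSA library, and its log2 difference was 0.26 (95% interval −0.06 to 0.58, unadjusted p = 0.105). Fads2, which acts before Fads1 in the same chain, had 0.15 (95% interval −1.25 to 1.55, unadjusted p = 0.82). Elovl4, which makes very long fatty acids in photoreceptors, was at 174, 221 and 569 CPM with BSA and 253 and 263 CPM with DHA. The DHA values were above the deeper BSA libraries but below BSA replicate 3, and the log2 difference was 0.40 (95% interval −0.08 to 0.88, unadjusted p = 0.1). Elovl2, which elongates precursors of DHA, had 0.22 (95% interval −0.13 to 0.57, unadjusted p = 0.203). Me1, the malic enzyme that supplies NADPH for lipid synthesis, was the member with an unadjusted p under 0.05, with a log2 difference of 0.51 (95% interval 0.07 to 0.94, unadjusted p = 0.0249).

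PPAR targets and fatty acid oxidation genes centred on 0, with 14 of 29 positive and a median of −0.00. Pdk4 (chr6:5483351-5496309, minus strand), a PPAR target that turns cells from glucose to fatty acid use, was lower with DHA, at 1.41, 0.484 and 1.31 CPM with BSA and 0.397 and 0.290 CPM with DHA, a log2 difference of −1.39 (95% interval −2.56 to −0.23, unadjusted p = 0.0214). All DHA values were below all BSA values, though BSA replicate 2 was close. Angptl4, another PPAR target, which inhibits lipoprotein lipase, was at 0.996, 0.572 and 0.904 CPM with BSA and 0.397 and 0.232 CPM with DHA, in the same direction. Cpt1a, the carnitine transferase that admits fatty acids to mitochondria, overlapped at 103, 157 and 88.2 CPM with BSA and 127 and 208 CPM with DHA, and the lipid droplet protein Plin2 had a log2 difference of 0.10 (95% interval −0.75 to 0.95, unadjusted p = 0.81). The counts above and below 0 in this list were nearly equal.

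Cholesterol synthesis genes, which SREBP2 controls, were positive in 16 of 26, with a median of 0.05 (−0.05 without BSA replicate 1). Stard4, a sterol carrier, had a log2 difference of 0.41 (95% interval 0.01 to 0.81, unadjusted p = 0.0434) and Hmgcs1, the enzyme at the start of the pathway, 0.15 (95% interval −0.32 to 0.61, unadjusted p = 0.52). Antioxidant genes, which counter peroxidation of polyunsaturated lipids, had a median of −0.02, with 0 of 24 at an unadjusted p under 0.05.

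FGF and ERK feedback genes centred near 0 in this comparison, where both groups had received FGF1. Of 23 tested, 12 were positive, the median was 0.08 (−0.05 without BSA replicate 1), and none had an unadjusted p under 0.05. Dusp6, an ERK phosphatase, was at 57.0, 86.2 and 68.1 CPM with BSA and 53.9 and 75.3 CPM with DHA, and Etv5, an ERK-driven transcription factor, at 44.3, 55.7 and 67.3 CPM with BSA and 65.3 and 54.5 CPM with DHA. Both overlapped, with log2 differences of −0.14 and 0.14. Dusp5 was the only 1 of the 23 without overlap, at 21.2, 21.2 and 19.8 CPM with BSA and 27.0 and 27.8 CPM with DHA. Of all genes, 7.08% were higher in both DHA libraries than in every BSA library, so the list did not stand out. Among 18 FGF receptors and ligands, 2 had an unadjusted p under 0.05, both lower: Fgf14, an intracellular FGF that binds sodium channels, with a log2 difference of −0.67 (95% interval −1.28 to −0.06, unadjusted p = 0.0328), and Fgfr2. Fgfr2 was at 4.40, 2.07 and 11.1 CPM with BSA, 1.59 and 1.28 CPM with DHA and 12.1, 9.97 and 8.47 CPM with LA, a log2 difference of −1.56 (95% interval −3.0 to −0.11, unadjusted p = 0.0359).

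**Figure D3:**
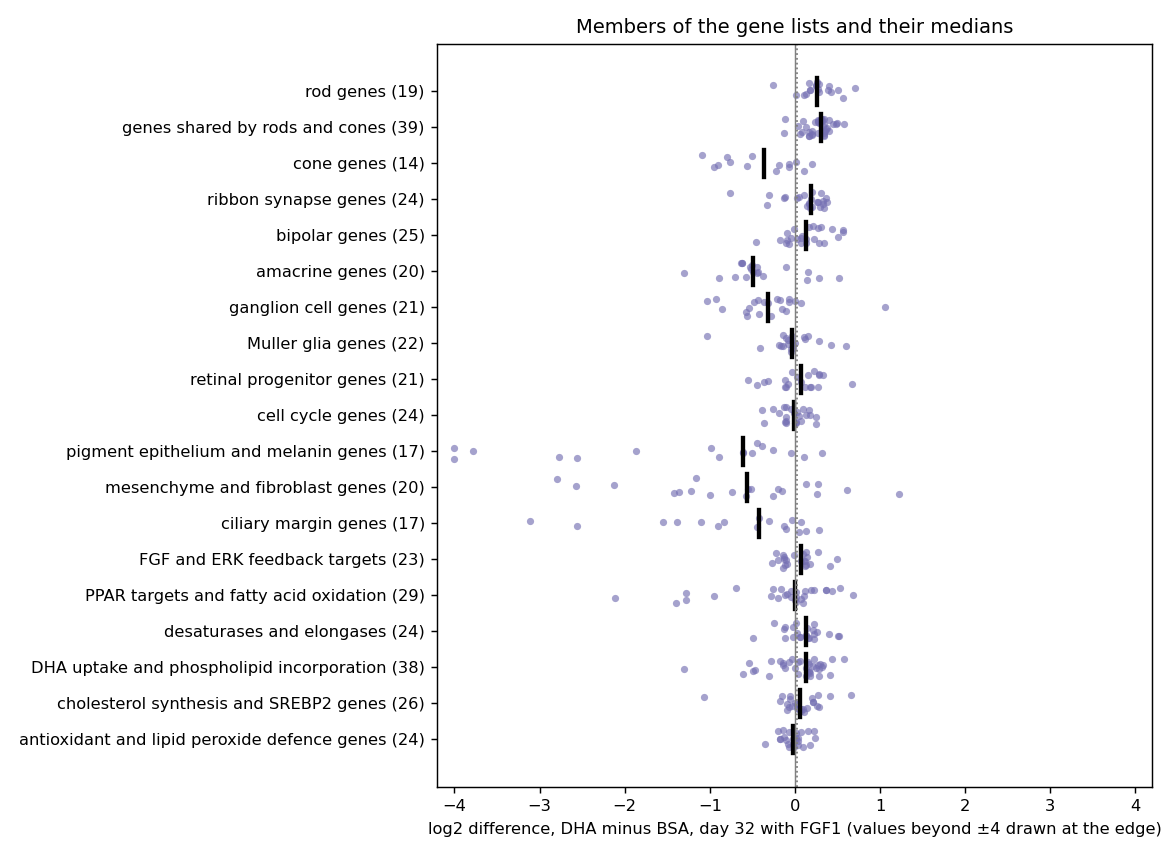
Log2 difference, DHA minus BSA at day 32 with FGF1, for each tested member (points) of 19 gene lists with the number tested in parentheses; thick bars are list medians and the dotted line is the median of all genes. Rod and shared photoreceptor lists lie right of 0, cone, amacrine and ganglion lists left of it, and the pigment, mesenchyme and ciliary margin lists have members far to the left.

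The genes with the smallest p above the abundance floor showed the size of difference that these libraries hold. On the higher side, Ankrd33b (chr15:31291478-31367726, minus strand) was at 313, 319.8 and 384 CPM with BSA and 541 and 399.7 CPM with DHA, a log2 difference of 0.58 (95% interval 0.22 to 0.94, unadjusted p = 0.0033). Lifr, the receptor of leukaemia inhibitory factor, was at 134, 147 and 151 CPM with BSA and 192 and 179.6 CPM with DHA, with both groups tight, and its log2 difference was 0.47 (95% interval 0.14 to 0.81, unadjusted p = 0.00806). Sgpp2, a sphingosine-1-phosphate phosphatase, Ndnf, a secreted neurotrophic factor, and Epas1, a hypoxia-inducible transcription factor, also had no overlap, with log2 differences of 0.64, 0.63 and 0.89. Tram1 of the endoplasmic reticulum, the neurite protein Slitrk6, the progenitor receptor Nr2e1 and the RNA-binding Lsm14a had log2 differences of 0.56, 0.80, 0.75 and 0.45, and each overlapped, with BSA replicate 3 high. The largest values of this side came mostly from single libraries. Olfr1178, an olfactory receptor gene, was at 1.15, 1.63 and 1.61 CPM with BSA and 1.04 and 30.1 CPM with DHA, and so rested on DHA replicate 2. Afap1l2, an actin-associated adaptor, was at 0.419, 0.836 and 1.1 CPM with BSA and 2.18 and 16.5 CPM with DHA. Both of its DHA values were above every BSA value, with DHA replicate 2 far higher than replicate 1.

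On the lower side the genes with the smallest p had no overlap between groups. Bmp2 (chr2:133552159-133562885, plus strand), a growth factor of the TGF-β family, was at 1.94, 1.41 and 2.71 CPM with BSA and 0.695 and 0.348 CPM with DHA, a log2 difference of −1.75 (95% interval −2.72 to −0.77, unadjusted p = 0.00149). Rbms1, an RNA-binding protein, was at 26.6, 25 and 29.5 CPM with BSA and 15.9 and 9.87 CPM with DHA, and Slc8a1, a sodium-calcium exchanger, at 38.6, 41.7 and 42.0 CPM with BSA and 25.5 and 26.4 CPM with DHA. The BSA values of both genes were tight across all 3 libraries, deeper and shallower alike, with log2 differences of −0.99 and −0.67. Lgi1, a secreted synaptic protein, Pappa, a protease of IGF-binding proteins, and the pentraxin Ptx3 had log2 differences of −1.98, −1.63 and −1.24, each with BSA replicate 3 highest. Stac, Tmem255a and the potassium channel Kcna4 had −1.12, −0.83 and −1.30. In the deeper libraries alone the smallest p belonged to another potassium channel gene, Kcnk9, at 51.0, 59.6 and 13.3 CPM with BSA and 24.5 and 31.7 CPM with DHA. Its log2 difference there was −1.0, but BSA replicate 3 fell below both DHA libraries, and the value with all libraries was −0.86 (95% interval −2.05 to 0.33, unadjusted p = 0.146).

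Whether DHA differed from BSA in another way with FGF1 than without it was tested as the difference of the 2 differences. Against day 32 without FGF1, 0 of 21124 genes were called (0.00%) by edgeR and 451 had an unadjusted p under 0.05 (2.14%). Against day 26, before FGF1 and the change of medium, 0 were called (0.00%) and 193 had an unadjusted p under 0.05 (0.914%). Each interaction uses the 5 libraries of the comparison as one of its sides. All day 32 libraries without FGF1 are shallower and all day 26 libraries are deeper, so the first interaction sets a difference between shallower libraries against one mostly between deeper ones.

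The lists showed different medians in the 3 settings, with no test of these differences by list. Rod and shared photoreceptor genes, at 0.26 and 0.30 with FGF1, were at 0.09 and 0.07 at day 32 without FGF1 and at −0.21 and −0.18 at day 26. Amacrine genes, at −0.50 with FGF1, were at 0.12 and −0.03. Pigment genes were negative at day 32 with and without FGF1 (−0.62 and −0.73) and positive at day 26 (0.62). Cdhr1 had an interaction with day 26 of 0.81 (unadjusted p = 0.0043) and Elavl4 an interaction with day 32 without FGF1 of −1.24 (unadjusted p = 0.00882), neither of which passed adjustment. Both genes already had a small p in the comparison with FGF1, which is one side of each interaction, so these values are not separate support. The smallest p among genes with a standard name was that of Hspa12b, a member of a heat shock protein family, for which DHA minus BSA was −0.57 with FGF1 and 1.79 without, a difference of −2.37 (unadjusted p = 0.000908). Against day 26 it was that of Mcoln3, a lysosomal ion channel also found in pigment cells. Mcoln3 was at 2.10, 1.06 and 2.71 CPM with BSA and at 0 CPM in both DHA libraries, at least 24.3-fold lower against a floor of 3 counts over the group, while at day 26 DHA minus BSA was 1.47.

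Of the 246 genes with an unadjusted p under 0.05, 94 had the same sign at day 26 (38.2%), against 47.3% of all genes tested. By direction these were 27 of the 94 higher genes (28.7%) and 67 of the 152 lower ones (44.1%). At day 32 without FGF1, 134 of them had the same sign (54.5%), against 53.0% of all genes. The share at day 26 lay below that of all genes and the share at day 32 without FGF1 close to it.

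**Figure D4:**
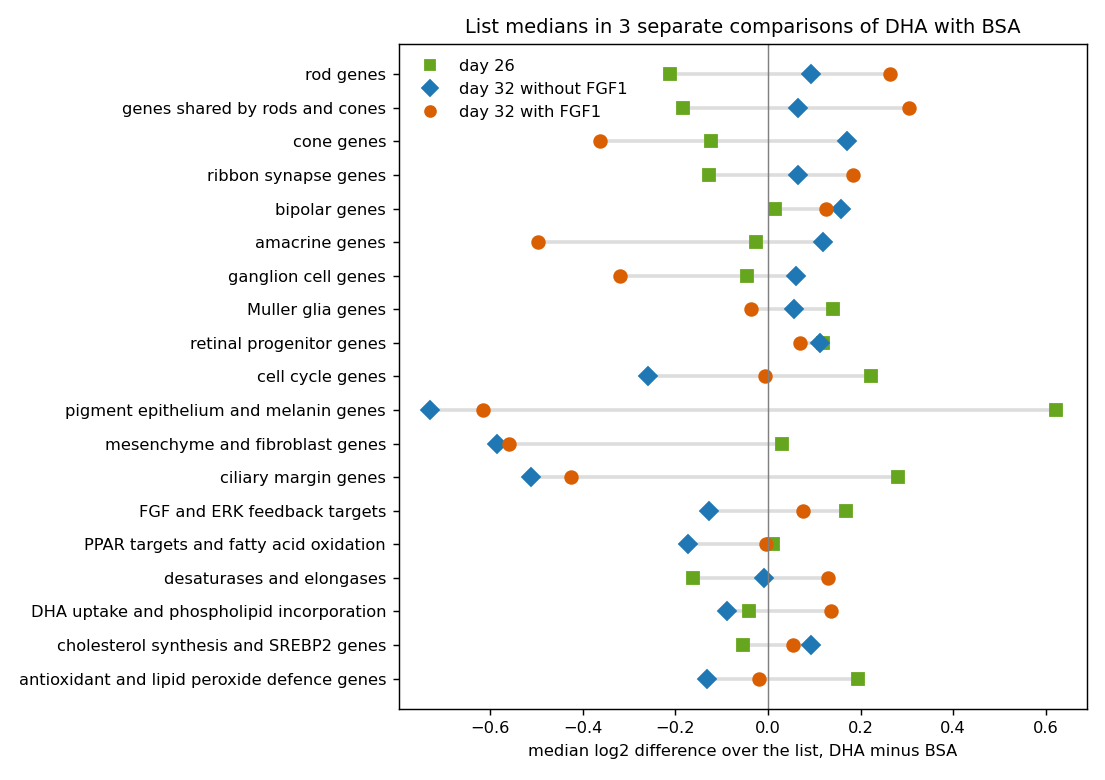
Median log2 difference, DHA minus BSA, of 19 gene lists at day 26 (squares), day 32 without FGF1 (diamonds) and day 32 with FGF1 (circles). The shared photoreceptor list runs from −0.18 at day 26 to 0.30 with FGF1, and the pigment list from 0.62 at day 26 to −0.73 at day 32 without FGF1; no spread or test is drawn.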

How the data were processed

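RNA was measured in 23 libraries of 9 groups. The submitters' processing notes name kallisto 0.45.0, Trimmomatic 0.36, the build GRCm38.p6 and edgeR, and the strand setting is not given in the sources used here. The gene table deposited by the authors holds estimated counts (expected counts, not whole numbers) for 52143 genes. For 18 libraries the authors also deposited a normalized CPM signal, used here only to see which libraries they kept. Transcripts of the deposited transcript counts were matched to GENCODE M21 for GC content (98.7% of genes tested have one). Positions are those of the deposited files.

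Counts were rounded, filtered with filterByExpr on the 9 groups (21124 genes), scaled by TMM and tested by quasi-likelihood in edgeR 4.0.16 with 9 group means and the library set (deeper or shallower, from the largest gap between library totals, 11888224 to 16029580). Residual degrees of freedom were 13. P-values were adjusted by Benjamini-Hochberg over all genes tested, with 0.05 as the threshold. CPM were scaled by TMM. Intervals are at 95% and rest on the same fit. Other tools were DESeq2 1.42.0 and limma 3.58.1 in R 4.3.3, with matplotlib 3.10.9 in Python 3.11.15. The fitting steps were tested on simulated data.

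The comparison, the gene lists, the tests and the naming rule were chosen with earlier results of these data known. Named genes were up to 12 per direction with the smallest p (average log2 CPM of at least 1, no predicted-gene name), 5 per direction in the deeper libraries, 3 per interaction, up to 4 per list, and key genes of fatty acid, FGF and photoreceptor biology, some of which are not reported here. Pmel, Aqp1, Gpnmb, Igf2, Acan, Mitf, Gnat2, Thrb, Slc17a7 and Lpcat2 fall outside it and were named after their values were seen. The cell type markers Slc6a9, Pou4f2, Rpe65 and Best1 were also named after their values were seen. Alternatives changed the libraries, the set term, the scaling, the filter, the tool, the block and the GC offset. Replicate numbers were not taken to pair libraries, and the labels do not say what a shared number means. Deviations of same-numbered BSA and DHA libraries correlated at 0.346, from 2 pairs, which does not show that the libraries are unpaired.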

Additional observations from a re-analysis of the deposited data

How the results depend on the processing

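The count of called genes stayed at 0 for the comparison of DHA with BSA under RLE size factors, no set term, 3 set levels, DESeq2, limma voom, a GC offset, the 12 deeper libraries, the 18 libraries kept by the authors, the 8 day 32 libraries with FGF1 (smallest adjusted p 0.0704), the replicate block (0 called, 345 at an unadjusted p under 0.05) and each library left out in turn (0 in each, 164 to 330 unadjusted). Exceptions were no filter on low counts, 38, and no filter in the 12 deeper libraries, 99. Both interactions stayed at 0 under those of these settings that were run for them, the replicate block and single libraries left out included, except 1 call by DESeq2 for the interaction with day 26. The fits of the deeper libraries with no filter and with a replicate block within day were chosen after seeing the data. For DHA against BSA, the block within day gave 0 called and 800 genes at an unadjusted p under 0.05, against 546 in the deeper libraries without it. Without the set term, the sign turned for Stard4 (−0.12), Elovl4 (−0.32), Elovl2 (−0.060), Thrb (−0.012), Hmgcs1 (−0.41) and Mfsd2a (0.10); BSA replicate 3 then enters uncorrected. As single libraries were left out, log2 differences crossed 0 for Olfr1178 (−0.47 to 4.36), Fn1 (−0.23 to 1.93), Igf2 (−0.80 to 2.16), Gnat1 (−0.13 to 1.50), Cpt1a (−0.029 to 0.68), Etv5 (−0.054 to 0.27), Acsl6 (−0.026 to 0.27), Fads2 (−0.029 to 0.25), Plin2 (−0.17 to 0.38) and Dusp6 (−0.40 to 0.10). All other named genes kept their sign under every alternative, leaving aside the markers Slc6a9, Pou4f2, Rpe65 and Best1, which are given by CPM only. The cause of these changes was not tested.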

Other observations

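Stress, gliosis and hypoxia genes were positive in 17 of 24, with a median log2 difference of 0.20 (0.10 without DHA replicate 1), and 0 had an unadjusted p under 0.05. Glycolysis genes, positive in 17 of 24, had a median of 0.09, which ran from −0.24 (without DHA replicate 1) to 0.42 as single libraries were left out. Nuclear genes of oxidative phosphorylation had a median of 0.06 and cilium and intraflagellar transport genes 0.04, and without DHA replicate 2 these were −0.04 and −0.04. Visual cycle and retinoid genes had a median of 0.15, with members in both directions, and of −0.04 without BSA replicate 2. Aldh1a3, which makes retinoic acid, was at 0.786, 1.1 and 0.602 CPM with BSA and 1.79 and 1.63 CPM with DHA, a log2 difference of 1.13 (95% interval −0.01 to 2.28, unadjusted p = 0.0522). Stra6, the receptor that takes up retinol, was at 3.56, 2.55 and 2.51 CPM with BSA and 1.64 and 1.57 CPM with DHA, in the other direction, with a log2 difference of −1.31 (95% interval −2.91 to 0.29, unadjusted p = 0.103). Ttn, the giant muscle protein titin, was at 7.18, 13.7 and 22.7 CPM with BSA and 4.76 and 6.45 CPM with DHA, a log2 difference of −1.03 (95% interval −1.92 to −0.14, unadjusted p = 0.0254).

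Libraries with the same replicate number lay closer to each other across media than replicates did within a medium. The SD of the log2 CPM difference over genes was 0.515 between BSA replicate 1 and DHA replicate 1 and 0.489 between the 2 libraries numbered 2. Between replicates 1 and 2 it was 0.570 with BSA and 0.623 with DHA, and it was 1.65 and 1.59 between BSA replicate 3 and the other BSA libraries. Some genes show the same split by number, with replicate 1 below replicate 2 in both groups: Gnat1 was at 48.9, 152 and 14.7 CPM with BSA and 88.0 and 227 CPM with DHA, and Rcvrn at 156, 329.6 and 114 CPM and 254 and 384 CPM. The labels do not say what a shared number means.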
